A study of Mus musculus with 6 samples.

Results

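The IL-6 family of cytokines and their STAT3 feedback were examined in white adipose tissues (WATs) of Ntsr2 AKO mice. The rule named 10 genes, and all 10 were found among the 21456 genes of the table. They are the ligands Il6, Lif, Il1b, Tnf and Il33, the receptor subunits Il6ra, Osmr and Il6st, the transcription factor gene Stat3 and its feedback inhibitor Socs3. Il1b, Tnf and Il33 belong to other cytokine families and were taken along as related inflammatory ligands. The members were named by function with earlier results of these data known.

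RNA-seq was performed on adipose tissue of 3 control mice and 3 Ntsr2 AKO mice. All 6 mice carried Ntsr2 flox/flox alleles with loxP sites around the whole gene, and they were fed a chow diet. The control mice had no Cre, and the Ntsr2 AKO mice also carried Adipoq-cre, which is active in white and brown adipocytes. The age and sex of these mice and the fat depot are not given in the sources used here. The labels call the tissue adipose and do not say that each sample is 1 animal, and samples are called mice here. The tissue was sequenced whole, so fewer cells of a type and less RNA per cell cannot be told apart.

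Members of the IL-6 family use a more specific receptor subunit together with the shared subunit gp130, the product of Il6st. The specific subunit is IL-6Rα for IL-6, OSMR for oncostatin M and LIFR for LIF. Gp130 carries JAK kinases, which phosphorylate STAT3, and STAT3 then moves to the nucleus and switches on target genes. One of them is Socs3, whose product binds gp130 and the JAKs and shuts the signal off, so Socs3 mRNA is widely used as a readout of recent STAT3 activity. Adipocytes, macrophages, fibroblasts and endothelial cells of fat all carry parts of this pathway. TNF and IL-1β are made mainly by macrophages and act through NF-κB, which switches on Il6 and Lif in many cells, while IL-33 is made by stromal and mesothelial cells of fat and acts on lymphocytes through its receptor ST2.

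The stretches of DNA before the start sites of Socs3, Lif and Il6 are shown because these were the members whose start regions held letters of a STAT, NF-κB, C/EBP, AP-1 or EGR motif, factors that act downstream of cytokines or of other stimuli. The motifs were picked with the values of the members known. The stretches were read from RefSeq promoters on GRCm38.p6, 5′ to 3′ on the strand of the gene, and end before the first base that GENCODE annotates as exon of the gene. Capitals mark motif matches. Promoters were found for all 10 members. GENCODE also annotates a longer Socs3 transcript that starts further upstream, and the stretch shown lies within its first intron.

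Socs3 (minus strand, chr11:117969452-117969616): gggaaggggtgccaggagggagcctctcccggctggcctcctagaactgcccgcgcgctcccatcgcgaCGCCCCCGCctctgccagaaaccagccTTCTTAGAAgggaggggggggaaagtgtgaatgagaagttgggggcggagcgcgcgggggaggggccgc
Lif (plus strand, chr11:4257318-4257556): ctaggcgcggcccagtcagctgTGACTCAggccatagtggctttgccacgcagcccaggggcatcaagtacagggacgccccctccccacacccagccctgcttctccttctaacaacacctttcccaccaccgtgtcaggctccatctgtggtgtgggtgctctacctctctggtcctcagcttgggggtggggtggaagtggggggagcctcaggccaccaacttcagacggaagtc
Il6 (plus strand, chr5:30012864-30013113): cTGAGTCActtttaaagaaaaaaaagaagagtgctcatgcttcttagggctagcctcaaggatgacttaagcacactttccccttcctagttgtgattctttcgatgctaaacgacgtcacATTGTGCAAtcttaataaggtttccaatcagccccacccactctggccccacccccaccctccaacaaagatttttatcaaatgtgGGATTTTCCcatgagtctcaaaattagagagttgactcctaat

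In the 250 bases before each RefSeq start, 5 motifs were searched on both strands: STAT (TTCNNNGAA), NF-κB (GGANTTTCC), C/EBP (TTGCNNAAT), AP-1 (TGANTCA) and EGR (GCGNGGGCG). Socs3 held 1 STAT match, 154 to 146 bases before its start, and 1 EGR match, 181 to 173 bases before it. Lif held 1 AP-1 match. Il6 held an AP-1 match, a C/EBP match and, 43 to 35 bases before its start, an NF-κB match. The other 7 members held no match to these letters in their windows. Of 32851 mouse promoter windows of this length, 7.02% held the STAT letters, 1.06% the NF-κB letters, 2.11% the C/EBP letters, 6.75% the AP-1 letters and 4.70% the EGR letters. No motif overlapped another. A match describes letters and was not tested for binding.

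The values are normalized counts, the number of reads of a gene divided by 1 size factor for each mouse. The recovered totals were 60405373 to 66098226 reads in control mice and 54085088 to 56268725 in Ntsr2 AKO mice, so each control mouse was sequenced more deeply than each Ntsr2 AKO mouse. Ntsr2 itself had 64.0 to 152 normalized counts in control mice and 0 to 8.29 in Ntsr2 AKO mice. The adipocyte markers (Adipoq, Plin1, Fabp4 and others) summed to 1051770 to 1551570 in control and 1346770 to 1558880 in Ntsr2 AKO mice. The skeletal muscle markers stood apart, with 2478630 in control 5, 80303 in Ntsr2 AKO 4 and 179419 in Ntsr2 AKO 5 against 514 to 1563 in the other mice. Genes were tested with limma on log2(normalized count + 1), and a gene was called when its p, adjusted over the 16157 genes tested, was under 0.05.

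Socs3, Stat3, Osmr, Il6ra and Tnf had less mRNA in each Ntsr2 AKO mouse than in any control mouse, and Lif had more. Socs3 differed most, with a mean in Ntsr2 AKO mice 5.09-fold under that in control mice, while Stat3, Osmr, Il6ra and Tnf were 1.83-fold to 2.70-fold under and Lif was 3.17-fold over. Il6, Il1b, Il33 and Il6st overlapped between the genotypes. With limma none of the 10 members was called (0 of 10), where 0.00619% of all genes tested were called (1 gene, Egr1). At an unadjusted p under 0.05, 5 members were lower and 1 was higher, against 5.27% and 3.08% of all genes tested. The groups did not overlap in those same 6 members, against 8.16% lower and 6.82% higher over all genes. On the recovered reads DESeq2 called 3 members, Socs3 and Stat3 as lower and Lif as higher, where it called 0.953% of all genes as lower and 0.408% as higher, and edgeR's quasi-likelihood test called 0 of 10, with 5 lower and 1 higher at an unadjusted p under 0.05. The median log2 fold change of the 10 members was -0.92, against -0.01 over all genes tested.

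**Figure D1:**
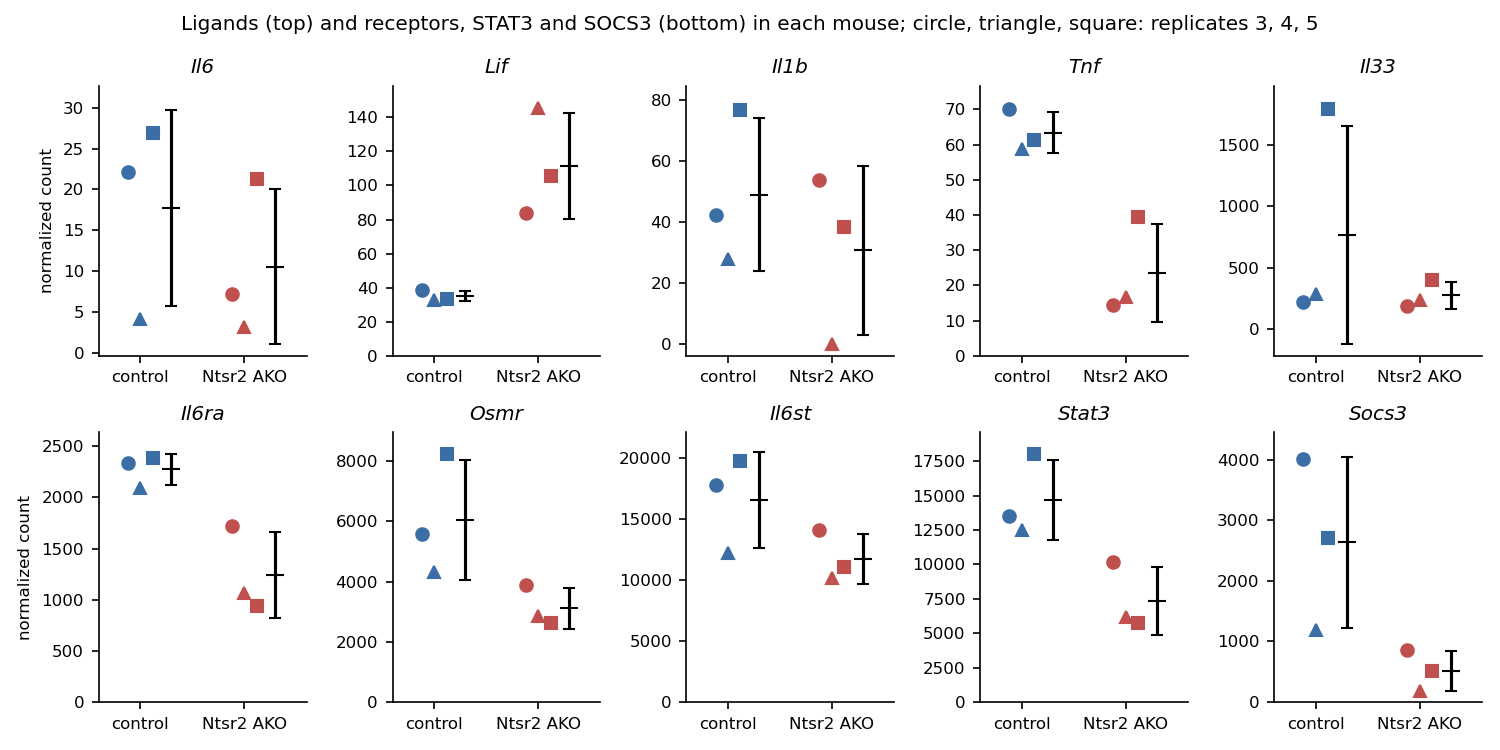
Normalized counts (vertical axes, 1 scale for each gene) of the 10 genes in 3 control mice (blue) and 3 Ntsr2 AKO mice (red), with the replicates as circles (3), triangles (4) and squares (5), and the mean ± SD beside the points of each group. Socs3, Stat3, Osmr, Il6ra and Tnf have every red point under every blue point, Lif has every red point above, and the high mean of Il33 in control mice comes from control 5 (1795).

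Among the ligands, Il6 encodes the cytokine that names the family and was close to the limit of detection. Its normalized counts were 22.1, 4.13 and 26.9 in control 3, 4 and 5 and 7.23, 3.11 and 21.3 in Ntsr2 AKO 3, 4 and 5, which are 24, 4, 28, 7, 3 and 21 reads. Replicate 4 was the lowest mouse of both groups, and the groups overlapped. Between the genotypes the log2 fold change was -0.71 (95% interval -3.07 to 1.65, limma adjusted p = 0.857). Leaving out 1 mouse moved it from -1.48 (without control 4) to -0.14 (without Ntsr2 AKO 4), and quantile normalization gave -1.18.

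Lif encodes leukemia inhibitory factor, a gp130 cytokine that signals through LIFR. Its normalized counts were 38.7, 33.0 and 33.6 in control mice and 83.6, 145 and 105 in Ntsr2 AKO mice. The control mice were close together and the lowest Ntsr2 AKO mouse was above the highest of them, so Lif was the 1 member that was higher in Ntsr2 AKO mice. The log2 fold change was 1.61 (standard error, SE, 0.34, limma adjusted p = 0.499), and in DESeq2 it was 1.67 (adjusted p = 0.00833, and 0.00833 to 0.974 across the alternatives). Leaving out any 1 mouse gave 1.40 to 1.79.

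Tnf encodes tumor necrosis factor. It had 69.9, 58.8 and 61.4 normalized counts in control mice and 14.5, 16.6 and 39.5 in Ntsr2 AKO mice. Each Ntsr2 AKO mouse was under the lowest control mouse, and Ntsr2 AKO 5 was the nearest to it. On the log2 scale the difference was -1.53 (SE 0.49, limma adjusted p = 0.546, DESeq2 adjusted p = 0.276).

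Il1b encodes IL-1β, which is released by activated macrophages and neutrophils. It had 42.3, 27.9 and 76.7 normalized counts in control mice and 53.7, 0 and 38.5 in Ntsr2 AKO mice. The 0 of Ntsr2 AKO 4 allows a level of up to 3.11 normalized counts (3 reads, counting error only), while the other Ntsr2 AKO mice lay within the range of the control mice. The log2 fold change of -1.83 (95% interval -5.43 to 1.77, limma adjusted p = 0.761) became 0.01 without Ntsr2 AKO 4. The fits on recovered reads gave -0.66 (edgeR) and -0.67 (DESeq2), and the pseudocount moved the limma value from -1.11 (pseudocount 5) to -2.93 (pseudocount 0.1).

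Il33 encodes IL-33, an alarmin of stromal cells. It had 220, 283 and 1795 normalized counts in control mice and 183, 234 and 400 in Ntsr2 AKO mice. Control 5, the mouse with the highest skeletal muscle markers, was far above all others, and the remaining 5 mice overlapped. The log2 fold change of -0.90 (95% interval -2.77 to 0.97, limma adjusted p = 0.772) was 0.05 without control 5.

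The receptor subunits come next. Il6ra, which encodes the IL-6-binding subunit, had 2333, 2095 and 2387 normalized counts in control mice and 1718, 1072 and 938 in Ntsr2 AKO mice. The control mice lay within a narrow range and each Ntsr2 AKO mouse was under it. The log2 fold change was -0.92 (SE 0.23, limma adjusted p = 0.522, DESeq2 adjusted p = 0.0595). In the annotation the gene Gm42809 overlaps Il6ra, and Il1bos overlaps Il1b. Reads shared by overlapping genes cannot be told apart, and the counting is not stated to use strand.

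Osmr encodes the subunit that pairs with gp130 to bind oncostatin M, and it is itself a target gene of STAT3. It had 5594, 4323 and 8224 normalized counts in control mice and 3897, 2861 and 2617 in Ntsr2 AKO mice. Control 5 was again the highest mouse, yet Ntsr2 AKO 3 was also under control 4, the lowest control mouse. The log2 fold change was -0.92 (SE 0.26, limma adjusted p = 0.522, DESeq2 adjusted p = 0.0570), and without control 5 it was -0.68.

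Il6st, which encodes gp130, had 17829.7, 12236 and 19783 normalized counts in control mice and 14109, 10206 and 11069.8 in Ntsr2 AKO mice. Ntsr2 AKO 3 was above control 4, so the groups overlapped. Its log2 fold change was -0.48 (95% interval -0.997 to 0.039, limma adjusted p = 0.609).

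Stat3 encodes the transcription factor that gp130 activates. Its normalized counts were 13545, 12499.7 and 17986 in control mice and 10151, 6171 and 5736 in Ntsr2 AKO mice. Ntsr2 AKO 4 and 5 had fewer than any other mouse by a wide margin, and Ntsr2 AKO 3 lay between them and the control mice. On the log2 scale Ntsr2 AKO minus control was -1.03 (SE 0.25, 95% interval -1.63 to -0.43, limma adjusted p = 0.520). In DESeq2 it was -0.99 (adjusted p = 0.0298, and 0.0298 to 0.974 across the alternatives). The last bases of Stat3 overlap those of Stat5a on the opposite strand, and Stat5a had a log2 fold change of -0.04.

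Socs3 lies on the minus strand of chromosome 11 (117966079 to 117970047, GRCm38) and encodes the feedback inhibitor. It had 4009, 1189.5 and 2698 normalized counts in control mice and 853, 189 and 511 in Ntsr2 AKO mice. The control mice varied widely among themselves, and the lowest of them, control 4, was above the highest Ntsr2 AKO mouse. The mean was 2632 ± 1411 in control and 517 ± 332 in Ntsr2 AKO mice (SD, n = 3), a difference of -2.43 on the log2 scale (SE 0.64, 95% interval -3.94 to -0.91, limma adjusted p = 0.522). In DESeq2 it was -2.34 (adjusted p = 0.00622, and 0.00622 to 0.974 across the alternatives). Leaving out 1 mouse moved it from -2.92 (without control 4) to -1.83 (without Ntsr2 AKO 4).

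**Figure D2:**
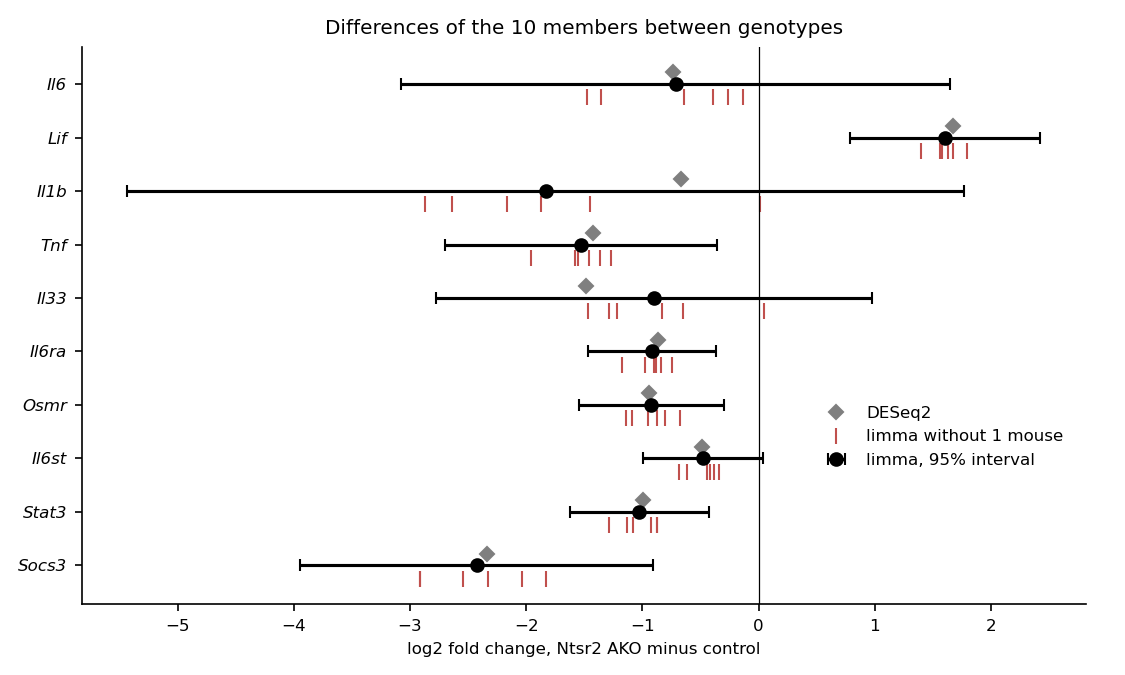
Log2 fold change of each member between Ntsr2 AKO and control mice (horizontal axis, negative where lower in Ntsr2 AKO). Black points and bars give limma with its 95% interval, grey diamonds give DESeq2, and red ticks give limma with 1 mouse left out. Lif stays above 0 and Socs3, Stat3, Osmr, Il6ra and Tnf stay under it with any mouse left out, while a tick of Il1b and of Il33 crosses 0 (0.01 and 0.05).

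Per kilobase of exon, Stat3 (1541 ± 306 normalized counts per kilobase, SD, n = 3) and Il6st (1497 ± 353) were the most abundant members in control mice, followed by Socs3 (911 ± 488), Osmr (499 ± 164), Il33 (265 ± 309), Il6ra (263 ± 17.9), Tnf (38.7 ± 3.56), Il1b (25.7 ± 13.2), Lif (8.06 ± 0.71) and Il6 (7.29 ± 4.94). In this order the ranges of neighbours overlapped except between Il6ra and Tnf and between Il1b and Lif. In Ntsr2 AKO mice Il6st (1063 ± 185) came before Stat3 (772 ± 255), Socs3 (179 ± 115) came after Osmr (258 ± 56.1), and Lif (25.6 ± 7.17) stood above Il1b (16.1 ± 14.5) and Tnf (14.3 ± 8.46). There the ranges of neighbours overlapped except between Stat3 and Osmr, Il33 (94.3 ± 39.3) and Lif, and Tnf and Il6 (4.34 ± 3.92). Receptor and signalling genes of the pathway were measured with many reads, and Il6, Lif, Il1b and Tnf with few. These levels are per length of all annotated exons, which need not all be used in fat.

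The other genes of the pathway were read from 9 lists by role. Of 120 tested genes in the union of the lists, 93 were lower and 27 higher, where 8236 of all 16157 genes tested were lower. At an unadjusted p under 0.05, 33 were lower and 1 higher (5.27% and 3.08% of all genes), and 0 were called with limma. These shares over all genes are the background for each list that follows. The median log2 fold change over the union was -0.35. DESeq2 called 12 of the 120, of which 11 were lower and Lif was higher (0.953% and 0.408% of all genes). Without the 10 members, 110 genes were left, of which 28 were lower and 0 higher at an unadjusted p under 0.05.

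Of the gp130 ligands, 9 of 10 were tested, with 1 lower and 1 higher at an unadjusted p under 0.05 and a median log2 fold change of -0.04. The lower ligand was Clcf1, which encodes cardiotrophin-like cytokine factor 1. It had 300.0, 348 and 581 normalized counts in control mice and 166, 179 and 169 in Ntsr2 AKO mice, without overlap (log2 fold change -1.19, limma adjusted p = 0.520, DESeq2 adjusted p = 0.0159). Osm, which encodes the ligand of OSMR, had 21.2, 33.0 and 20.1 in control mice and 5.16, 16.6 and 15.2 in Ntsr2 AKO mice (with a log2 fold change of -1.06, SE 0.64, limma adjusted p = 0.683). Ctf1, the cardiotrophin 1 gene, had a log2 fold change of 0.08. Lif had the highest and Clcf1 the lowest log2 fold change among the tested ligands.

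Of the 8 receptors of the family, 2 were lower at an unadjusted p under 0.05 (Il6ra and Osmr) and 0 higher, with a median log2 fold change of -0.43. Lifr, which encodes the subunit that binds LIF, had 3619.7, 3238 and 3941 normalized counts in control mice and 3491, 4704 and 4907 in Ntsr2 AKO mice. Its groups overlapped and its log2 fold change was 0.27 (SE 0.16, limma adjusted p = 0.686). Il11ra1, the receptor gene of IL-11, had 6147, 6667 and 6584 normalized counts in control mice and 6691, 6703 and 8517 in Ntsr2 AKO mice. It was higher without overlap (6.82% of all genes), with a log2 fold change of 0.17 (limma adjusted p = 0.748). Its reads may be shared with near-identical copies.

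Of the 11 JAK and STAT genes, 10 were lower and 1 higher, 3 were lower at an unadjusted p under 0.05, and the median log2 fold change was -0.32. Beside Stat3 these were Jak2 (log2 fold change -0.68, limma adjusted p = 0.522) and Jak1 (-0.51, adjusted p = 0.569), the kinases that gp130 carries. Jak2 had 3365, 3228 and 5152 normalized counts in control mice and 2528, 2196 and 2428 in Ntsr2 AKO mice, and Jak1 had 10517, 10251 and 15655 against 9300.1, 7322 and 8555. In both genes control 5 was the highest mouse and the groups did not overlap. Tyk2, another JAK kinase gene, had a log2 fold change of 0.08.

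Of the 16 inhibitors of JAK-STAT signalling, 2 were lower at an unadjusted p under 0.05 and 0 higher (5.27% and 3.08% of all genes), with a median log2 fold change of -0.18. They were Socs3 and Socs5, a SOCS gene with a much smaller difference (log2 fold change -0.33, limma adjusted p = 0.565). Socs4 had 0.10 and Pias3 had 0.19. Cish, a feedback gene of STAT5 that was singled out after its values were seen, had 9317, 573 and 709 normalized counts in control mice and 6731, 98.5 and 3121 in Ntsr2 AKO mice. Its groups overlapped, and mice of the same genotype were far apart (log2 fold change -0.29 with an SE of 1.74).

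The list of STAT3 target genes had the lowest median of the 9 lists, some of which share genes. Of its 19 tested genes 18 were lower in Ntsr2 AKO mice, 13 of them at an unadjusted p under 0.05 (5.27% of all genes), and 0 were higher at that p. The median log2 fold change was -0.92, and the groups did not overlap in 10 genes, each lower (8.16% of all genes). DESeq2 called 7 genes, each lower (0.953% of all genes), and limma called 0. Without Ntsr2 AKO 4, 8 genes of the list were lower at an unadjusted p under 0.05, where 414 of all 16157 genes tested were. Leaving out another mouse gave 10 to 13, where 544 to 1104 of all genes tested were lower. With all mice 852 of all genes tested were lower at that p. When Socs3, Osmr and Junb were set aside, 10 of 16 genes were lower at an unadjusted p under 0.05, with a median of -0.70. Junb was set aside because it is also on the list of immediate early genes used here. Myc, Bcl3 and Il4ra are not on that list and stayed among the 16.

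Junb, an AP-1 gene, had 3702, 2234 and 4135 normalized counts in control mice and 1101, 297 and 700.3 in Ntsr2 AKO mice (with a log2 fold change of -2.40, SE 0.48, limma adjusted p = 0.499, DESeq2 adjusted p = 2.9e-04). Myc, a growth regulator, had 2296, 1562 and 2198 against 1143, 628 and 614 (log2 fold change -1.39, DESeq2 adjusted p = 0.00385). In both genes, as in Socs3, control 4 was the lowest control mouse and was above each Ntsr2 AKO mouse. Bcl3, which encodes a nuclear partner of NF-κB, had 1383, 980.1 and 1460.0 against 536, 151 and 329 (log2 fold change -2.07, DESeq2 adjusted p = 0.00313).

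The other genes of the list that DESeq2 called, named after their values were seen, were Mcl1 (limma -0.65 on the log2 scale) and Hif1a (-0.46), beside Il4ra (-1.72) and Socs3. Mcl1 encodes a survival factor, Il4ra the receptor subunit of IL-4 and IL-13, and Hif1a the hypoxia factor. Lbp, the gene of the lipopolysaccharide-binding protein, had a log2 fold change of 0.09. Timp1, an inhibitor of matrix proteases that was singled out after its values were seen, had 161, 1614 and 1206 normalized counts in control mice and 100.1, 37.3 and 1624 in Ntsr2 AKO mice, so the groups overlapped widely.

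**Figure D3:**
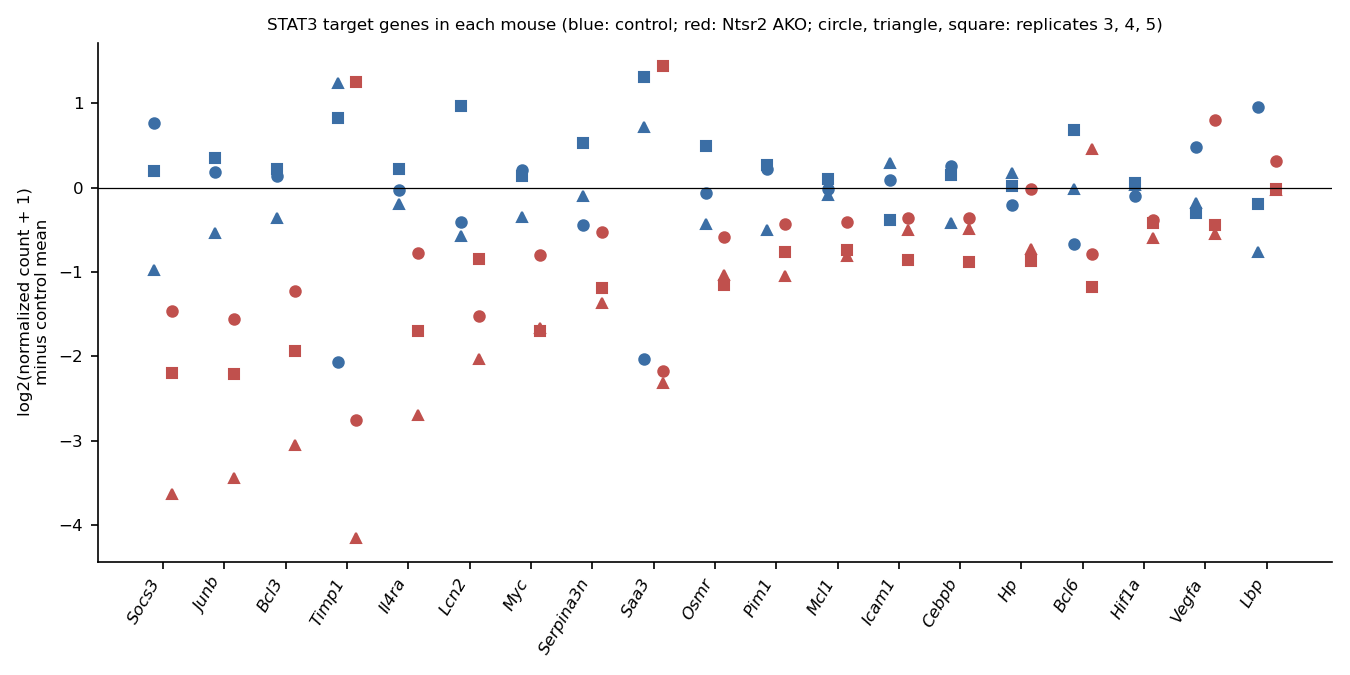
The 19 tested STAT3 target genes (horizontal axis) in each mouse as log2(normalized count + 1) minus the mean of the control mice (vertical axis), with control mice in blue, Ntsr2 AKO mice in red and the replicates as circles (3), triangles (4) and squares (5). From Socs3 at the left (log2 fold change -2.43) to Lbp at the right (0.09) the genes are ordered by their difference, and Ntsr2 AKO 4 is the lowest mouse in Socs3, Junb, Bcl3 and Il4ra.

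In the IL-1, IL-33 and IL-18 system, 3 of 19 tested genes were lower at an unadjusted p under 0.05 and 0 higher, with a median log2 fold change of -0.26. Il1r1, which encodes the signalling receptor of IL-1, had 11219, 6401 and 11129 normalized counts in control mice and 6532, 2924 and 3290.2 in Ntsr2 AKO mice. Ntsr2 AKO 3 was just above control 4, so they overlapped (log2 fold change -1.22 with an SE of 0.36, limma adjusted p = 0.522). Irak3, a brake on IL-1 and Toll-like receptor signalling, had 1736, 1723 and 2572 against 1344, 728 and 942, without overlap (log2 fold change -1.02, limma adjusted p = 0.522, DESeq2 adjusted p = 0.0505). Il1rl1, which encodes the IL-33 receptor ST2, had 363, 2827 and 3088 against 477, 442 and 904, with control 3 under every Ntsr2 AKO mouse (log2 fold change -1.35 with an SE of 0.82). Il1rap, the co-receptor of IL-1 and IL-33, and Il18 had log2 fold changes of 0.37 and 0.36.

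In the TNF system, 3 of 11 tested genes were lower at an unadjusted p under 0.05 and 0 higher (5.27% and 3.08% of all genes), with a median log2 fold change of -0.61. Beside Tnf these were both of its receptors. Tnfrsf1a had 12893, 9221 and 12086 normalized counts in control mice and 8941, 5619 and 5469 in Ntsr2 AKO mice (with a log2 fold change of -0.80, SE 0.23, limma adjusted p = 0.522). Tnfrsf1b had 1901, 2071 and 1752 against 1409, 1037 and 1289 (log2 fold change -0.62 with an SE of 0.15, limma adjusted p = 0.520, DESeq2 adjusted p = 0.0554). Neither overlapped between the groups. Tradd, the adaptor of the TNF receptor, had 0.18.

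Of 17 NF-κB factors and feedback genes, 7 were lower at an unadjusted p under 0.05 and 0 higher (5.27% and 3.08% of all genes), and the median log2 fold change was -0.43. Nfkb2, which encodes the p100 precursor, had 1670.4, 1404 and 1446 normalized counts in control mice and 1022, 881 and 921 in Ntsr2 AKO mice (with a log2 fold change of -0.68, SE 0.13, limma adjusted p = 0.499, DESeq2 adjusted p = 0.00385). Its mice were closer together within each group than those of Bcl3. The kinase subunit genes Ikbkg and Ikbkb had 0.26 and 0.01. Among 14 receptors of other cytokines that use JAK-STAT signalling, 3 were lower at an unadjusted p under 0.05 and 0 higher, with a median of -0.13. Csf2rb, the shared subunit of the GM-CSF, IL-3 and IL-5 receptors, had 3261, 3871 and 3030.4 against 2321, 1647 and 1586 (log2 fold change -0.89, DESeq2 adjusted p = 0.0101), and reads may be shared with its close copy Csf2rb2. Il4ra had 8497, 7567 and 10143 against 5080.5, 1339 and 2673, and Prlr and Il10ra had log2 fold changes of 1.06 and 0.48, with overlapping groups.

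**Figure D4:**
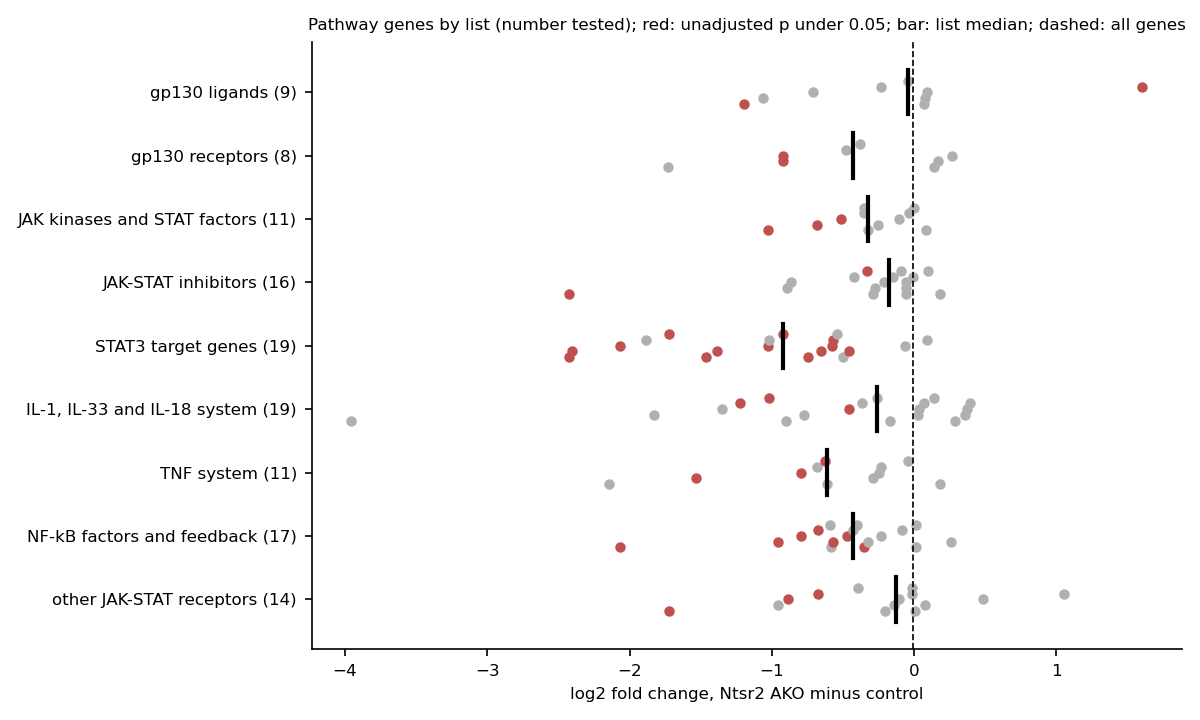
Log2 fold change between Ntsr2 AKO and control mice (horizontal axis) of each tested gene in the 9 pathway lists (vertical axis, with the number tested), in red where the unadjusted p was under 0.05. Black bars mark list medians, from -0.92 for the STAT3 target genes to -0.04 for the gp130 ligands, and the dashed line marks the median of all genes (-0.01). Lif is the 1 red point to the right of 0.

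The genes whose log2 values were most like those of Socs3 over the 6 mice were Vasn (Pearson r = 0.997), Trip11 (r = 0.994) and Palm2 (r = 0.990), the highest of 16157 tested genes. Vasn had 3597, 2153 and 3222 normalized counts in control mice and 1892, 1090.4 and 1653 in Ntsr2 AKO mice, so it followed Socs3 both between and within the groups. The genes most like Il6 were Hist1h3c (r = 0.989), Hs3st1 (r = 0.987) and Ankrd61 (r = 0.979), with replicate 4 the lowest mouse of both groups in Hs3st1 (207, 137 and 233 against 170.3, 132 and 206). With 6 mice and this many genes such values are a description of the pattern.

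The immediate early genes and the markers of other cell types were read in the same mice. The 12 immediate early genes, which cells induce within minutes of a stimulus or of handling, summed to 14355 to 23003 normalized counts in control mice and 7602 to 9162 in Ntsr2 AKO mice. All 12 were lower, 8 of them at an unadjusted p under 0.05 (5.27% of all genes tested). Their median log2 fold change was -1.29, under that of the STAT3 target genes (-0.92). The groups did not overlap in 8 of the 12, each lower (8.16% of all genes), and DESeq2 called 5 as lower (0.953% of all genes). Egr1, the 1 gene that limma called, had 2411, 2020.0 and 2627 against 513, 407 and 507 (log2 fold change -2.30, adjusted p = 0.0442). Of the 5 tested neutrophil markers all 5 were lower, 1 of them at an unadjusted p under 0.05 (5.27% of all genes), and their sums overlapped (186 to 551 in control and 57.0 to 215 in Ntsr2 AKO mice). The 7 macrophage markers summed to 23224 to 70840.4 and 24469 to 56523, and 0 of them had an unadjusted p under 0.05, although all 7 had lower means on the log2 scale. None of the lymphocyte, endothelial, progenitor, adipocyte and skeletal muscle markers had an unadjusted p under 0.05. Of the mesothelial markers 2 passed the filter and 1 of them (Krt19) was lower at that p, while Wt1 and Upk3b were at 0 in 5 of the 6 mice, as was the neutrophil marker Ly6g. The part of these groups in the differences of Socs3, Stat3, Tnf and the other members was not tested. With the skeletal muscle markers as a covariate the log2 fold changes were -2.39 for Socs3, -1.02 for Stat3, -1.57 for Tnf and 1.59 for Lif.

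**Figure D5:**
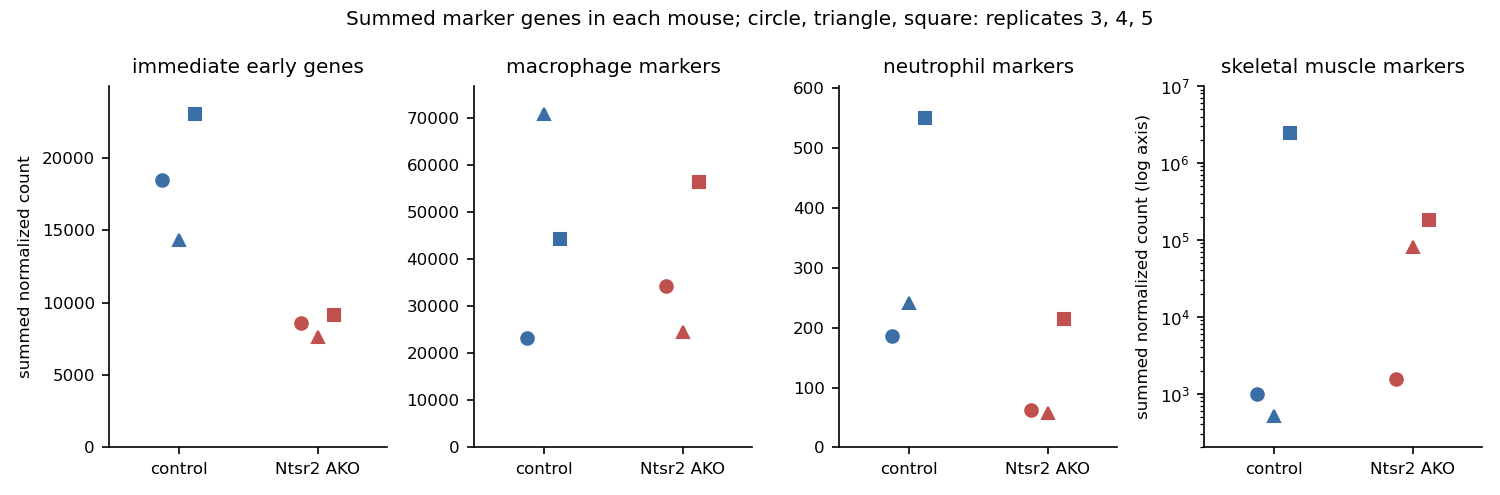
Summed normalized counts (vertical axes, log axis for muscle) of immediate early genes and of macrophage, neutrophil and skeletal muscle markers in each control (blue) and Ntsr2 AKO (red) mouse, with the replicates as circles (3), triangles (4) and squares (5). The immediate early genes do not overlap between the groups (14355 to 23003 against 7602 to 9162), the macrophage and neutrophil markers do, and muscle markers are high in control 5 (2478630).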

How the data were processed

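RNA-seq of adipose tissue from 3 control and 3 Ntsr2 AKO mice was analysed. The authors trimmed reads with Trimmomatic, aligned them with Hisat2 (the submitters' processing notes list mm10), quantified genes with StringTie and used DESeq2. Versions and annotation are not given in the sources used here. The deposited signal values are counts divided by a size factor for each mouse, and 100% were whole numbers of reads (within 1e-06) after division by the smallest value of the column. Genes with a mean of at least 10 (16157 of 21456) were tested with limma 3.58.1 in R 4.3.3 (mean-variance trend, pseudocount 1, Benjamini-Hochberg adjustment). Tests for counts were alternatives, made with edgeR 4.0.16, which called 0 genes, and DESeq2 1.42.0, which called 220, from the recovered reads. Other alternatives changed the pseudocount, filter, trend, normalization and mice included. The procedures were also run on simulated data with planted changes. That check does not show which tool is right where limma and DESeq2 differ here. Fold changes are on the log2(value + 1) scale, where the pseudocount and single values of 0 weigh on low genes.

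The members, gene lists and marker lists were chosen with earlier results of these data known. Named were the members, Ntsr2, Egr1, receptor partners of members, up to 2 genes for each list and direction with the smallest p, and the 3 genes most like Socs3 and Il6. Genes outside this rule (Cish, Timp1, Mcl1, Hif1a, Stat5a and markers) were named after their values were seen. Adgre1, Cebpd and Upk1b were not found under these symbols among the deposited genes and so were not analysed. Cebpd is on the list of STAT3 target genes. Il11 and Il1a were under the filter. Positions and exon lengths are from GENCODE M21 (GRCm38, the build of mm10). The kit and counting are not stated to use strand. Since the labels do not say that samples came from separate animals, p-values measure only the spread between these samples. No 2 samples held identical values.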

Additional observations from a re-analysis of the deposited data

How the results depend on the processing

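Over all genes 1 gene was called by limma, 220 by DESeq2, and 0 by edgeR (1323 genes at an unadjusted p under 0.05), by limma without the filter on low values (1579), without the mean-variance trend (1325), with the skeletal muscle covariate (1366) and with the replicate block (1303). Leaving out any 1 mouse gave 0 (647 to 1696 at an unadjusted p under 0.05). Of the members 3 were called by DESeq2 (Lif, 1.67, Stat3, -0.99, and Socs3, -2.34) and 0 in every other fit, and of the pathway genes 12 and 0. Counts at an unadjusted p were tried after the data were seen. Leaving out 1 mouse gave 4 to 6 lower members, and 8 to 13 lower STAT3 target genes, of which 8 without Ntsr2 AKO 4. In these fits the lower genes among all 16157 tested ran from 414 (without Ntsr2 AKO 4) to 1104 (without Ntsr2 AKO 3), so the background moved too. Over the fits without 1 mouse the log2 fold change of Il1b ran from -2.87 to 0.015 (without Ntsr2 AKO 4) and that of Il33 from -1.46 to 0.047 (without control 5), and both turned their sign. Of 157 fold changes of members under the alternatives, 152 kept their sign and their side of the threshold. As no member was called in the main fit, keeping its side meant staying uncalled. DESeq2 gave Il6 no adjusted p, and this was counted as uncalled. The cause of the changes between tools was not tested. With a mean of at least 50 as the filter, Il6, Il1b and Tnf were not tested. Quantile normalization moved the median log2 fold change of all genes to 0.05 and the unadjusted calls from 852 lower and 497 higher to 612 and 633. The replicate numbers 3, 4 and 5 occur in both groups, and the labels do not say that they pair mice. Deviations of same-numbered mice correlated by 0.45 (replicate 3), -0.24 (replicate 4) and 0.41 (replicate 5) across genes. Those of differently numbered mice correlated by -0.52 to 0.26. The main fit did not use the numbers as pairs, and whether same-numbered mice shared a batch was not tested. The replicate block gave 0 called members, with 6 lower and 1 higher at an unadjusted p under 0.05. Over all 16157 genes tested, 866 were lower and 437 higher at that p in this fit. With this block the limma adjusted p of Socs3 was 0.0742, against 0.522 in the main fit. Il6, Il1b, Tnf, Lif and Osm rest on few reads, so counting error adds to the spread between mice there.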
